A study of Mus musculus with 15 samples.

Results

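The genes examined were the 10 members of the pathway that sets sodium chloride uptake in the distal nephron: the transporters Slc12a1 (NKCC2) and Slc12a3 (NCC), the kinases Wnk1, Wnk4, Stk39 (SPAK) and Oxsr1 (OSR1), the ubiquitin ligase subunits Klhl3 and Cul3, and the potassium channel genes Kcnj1 (ROMK) and Kcnj10. They were chosen by name and found by matching Ensembl transcript identifiers to gene symbols, and all 10 were among the 12372 genes tested. RNA was sequenced from the kidneys of 15 wild-type male C57BL/6 mice in 3 groups of 5. Control mice received saline by pump and the vehicle by gavage. Ang II mice received angiotensin II at 500 ng/kg/min for 28 days and the same vehicle by gavage. Ang II + QDG mice, called QDG mice here, received the same infusion together with Qingda granule, a Chinese herbal formula, at 1.145 g/kg/day by gavage. The series was made to ask which transcripts change in the kidney of mice made hypertensive with angiotensin II, and which of them change again with Qingda granule. Mice are numbered within their group only to name them.

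NKCC2 takes up sodium, potassium and chloride across the apical membrane of the thick ascending limb, and NCC takes up sodium and chloride in the distal convoluted tubule. The WNK kinases phosphorylate and activate SPAK and OSR1, which in turn phosphorylate and activate both transporters. KLHL3 binds WNK kinases and presents them to the CUL3 ubiquitin ligase for degradation. ROMK returns potassium to the lumen of the thick ascending limb and secretes it further downstream, while the KCNJ10 channel sets the membrane voltage of the distal convoluted tubule through which extracellular potassium is sensed. Much of the regulation of this pathway lies in phosphorylation and protein turnover, which RNA sequencing does not measure.

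Slc12a1 is spliced with 1 of 3 mutually exclusive cassette exons, known as variants A, B and F, which encode part of the ion-transporting domain and differ in where along the thick ascending limb they are used. The exons are shown because the transcripts of Slc12a1 differ by them. Each of the 3 annotated exons is 96 bases long, lies on the plus strand of chromosome 2 (GRCm38) and is the exon numbered 5 of its transcript. The first, at chr2:125165495-125165590, belongs to ENSMUST00000110494. The second, at chr2:125166123-125166218, belongs to ENSMUST00000028630, for which no values were analysed here. The third, at chr2:125166673-125166768, belongs to ENSMUST00000110495, the transcript with nearly all of the Slc12a1 sum over the listed transcripts, which do not include the second form. Capitals mark the 45 positions at which the exons are not all alike, and the other 51 positions are shared.
Slc12a1 exon of ENSMUST00000110494: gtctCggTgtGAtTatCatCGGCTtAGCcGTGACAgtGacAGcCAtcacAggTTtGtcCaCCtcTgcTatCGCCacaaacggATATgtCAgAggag
Slc12a1 exon of ENSMUST00000028630: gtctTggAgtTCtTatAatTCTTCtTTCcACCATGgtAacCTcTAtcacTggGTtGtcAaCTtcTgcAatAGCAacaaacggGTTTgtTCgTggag
Slc12a1 exon of ENSMUST00000110495: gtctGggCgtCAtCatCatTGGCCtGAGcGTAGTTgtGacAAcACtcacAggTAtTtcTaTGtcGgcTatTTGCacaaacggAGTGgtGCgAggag
The first and second exons were identical at 63 of 96 positions, the first and the third at 66 and the second and the third at 56.

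The main Wnk1 transcripts, ENSMUST00000088646 and ENSMUST00000203030, run over the same span on the minus strand of chromosome 6 (119924621 to 120037659) with 26 exons each and differ by a pair of coding exons. The exons are shown because the values of these transcripts exchanged places between mice, as their values show. The exon found only in ENSMUST00000088646 is 285 bases long and lies at chr6:119952685-119952969. The exon found only in ENSMUST00000203030 is 84 bases long and lies at chr6:119944701-119944784. Both are read on the minus strand and printed without capitals, since no part of them was singled out.
Wnk1 exon of ENSMUST00000088646 only: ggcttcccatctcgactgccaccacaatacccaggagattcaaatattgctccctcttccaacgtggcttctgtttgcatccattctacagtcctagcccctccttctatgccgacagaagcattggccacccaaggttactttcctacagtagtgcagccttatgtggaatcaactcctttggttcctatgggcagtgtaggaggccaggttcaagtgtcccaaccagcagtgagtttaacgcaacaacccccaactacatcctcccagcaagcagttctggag
Wnk1 exon of ENSMUST00000203030 only: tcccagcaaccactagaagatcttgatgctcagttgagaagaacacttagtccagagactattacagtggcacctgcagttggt

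For Slc12a3, 86.8% to 92.5% of the gene sum in the 15 mice came from ENSMUST00000212041, which is annotated as a retained-intron transcript of 17 exons on the plus strand of chromosome 8 (94329210 to 94347132). Its last exon joins a coding exon of 141 bases to 710 bases of the intron behind it. The boundary at chr8:94346393-94346452 is shown with the last bases of the coding exon in lower case and the first bases of the kept intron in capitals. The full-length coding transcript ENSMUST00000034218, with 25 exons, was not analysed here.
Slc12a3 boundary: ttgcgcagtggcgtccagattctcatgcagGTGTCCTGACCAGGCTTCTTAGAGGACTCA

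The deposited values were taken as FPKM (fragments scaled to transcript length and to the depth of the library) and imply 68902746 to 81365066 fragments per mouse. A gene sum is the FPKM of all its annotated transcripts that were listed in all 15 mice, and fold changes are on the log2(FPKM + 1) scale, which makes the changes of low genes smaller. Genes were called at a Benjamini-Hochberg adjusted p under 0.05 from limma across all 12372 genes, and SE is the standard error of a log2 fold change. Markers of kidney segments were present in every mouse, and none of the 3 adrenal cortex and 3 skeletal muscle markers was listed. Adipocyte markers, 3 genes, summed to 0 to 38.9 FPKM in Control, 0.0135 to 82.9 in Ang II and 2.96 to 31.2 in QDG. Ang II mice 2 and 5 held the 2 lowest Slc12a1 and the 2 highest Slc12a3 values of the 15 mice, and were singled out after these values were seen. Of 26 segment markers, mouse 2 was among the 3 lowest or the 3 highest mice for 17 and mouse 5 for 14, against 6 to 13 in each of the other mice. Of 8 thick ascending limb markers, Ang II mouse 2 was among the lowest for 5 and mouse 5 for 3, and mouse 5 was among the highest for 1, while QDG mouse 3 was at either end as often as mouse 2 (lowest for 1, highest for 4). For distal convoluted tubule markers, both were among the highest for 3 of 4 (Trpm6, Calb1 and Trpv5, but not Pvalb). Collecting duct markers were split, with both mice among the lowest for 2 of 7 (Aqp2 and Aqp3) and among the highest for 3 (Scnn1b, Atp6v1g3 and Slc26a4). Of 7 proximal tubule markers, mouse 2 was among the highest for 4, while mouse 5 was among the highest for 1 and the lowest for 1. In bulk kidney tissue, fewer cells of a segment and less RNA per cell cannot be told apart. The methods of the study do not say which part of the kidney was taken. Member fold changes that rest on these mice are given with and without them.

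None of the 10 members was called by limma in Ang II vs. Control, QDG vs. Ang II or QDG vs. Control, where 5.94%, 1.81% and 0.129% of all genes tested were called. In Ang II vs. Control, 612 genes were upregulated and 123 downregulated among all genes, but median scaling of the mice gave 209 and 286 and quantile normalization 227 and 268, so the excess of upregulated genes depended on the scaling. At an unadjusted p under 0.05 from limma there were 4 members in Ang II vs. Control (Slc12a3, Wnk1, Stk39 and Kcnj10, all higher in Ang II), against 22.7% of all genes. In QDG vs. Ang II there were 2 members (Slc12a1 and Kcnj1, both higher with QDG), against 16.4%. In QDG vs. Control there were 3 members (Wnk1, Stk39 and Kcnj10, all higher with QDG), against 14.4%. Under quantile normalization and under median scaling these counts were 1, 2 and 1, and without Ang II mice 2 and 5 they were 1, 0 and 4. The median log2 fold change of the members was 0.02, −0.01 and 0.22 in these comparisons, beside 0.08, −0.02 and 0.06 over all genes tested. The comparisons share groups of mice, so a member that is far from both other groups enters 2 of them through the same 5 values. At the threshold of the study, a fold change of at least 2 with an unadjusted p under 0.05, the only member was Slc12a1 in QDG vs. Ang II, with 0.816% of all genes passing there, 1.05% in Ang II vs. Control and 0.727% in QDG vs. Control. It no longer passed without Ang II mouse 2 (log2 fold change 0.78), Ang II mouse 5 (1.07) or QDG mouse 3 (1.14), and the values with a single mouse left out ran from 0.78 to 1.55. Of the 29 listed transcripts of the members, 20 were tested and none was called by limma, against 0.691%, 0.0972% and 0.0243% of all transcripts in Ang II vs. Control, QDG vs. Ang II and QDG vs. Control.

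**Figure D1:**
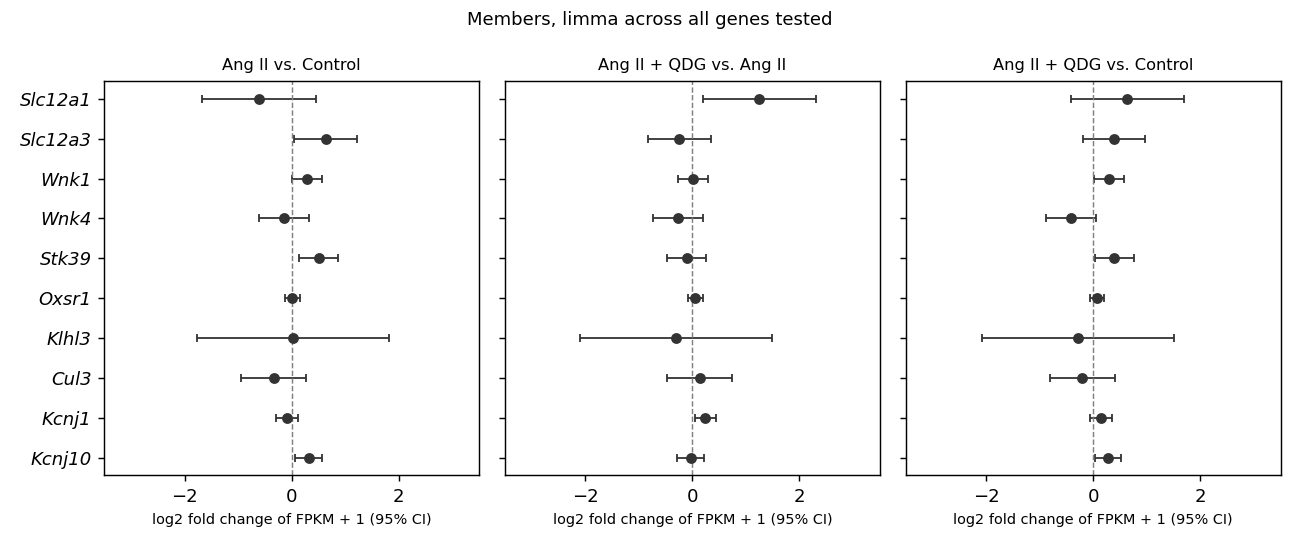
Log2 fold change of FPKM + 1 for each member in the 3 comparisons, with 95% confidence intervals from limma as horizontal bars. The intervals of Slc12a1 (−1.67 to 0.44 in Ang II vs. Control) and Klhl3 (−1.78 to 1.82) are wide and those of Oxsr1 (−0.12 to 0.15) and Kcnj1 (−0.29 to 0.11) narrow, with 5 mice in every group.

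FPKM is scaled by transcript length, so levels can be compared between genes, within what each sum holds. The place of Slc12a3 depends on its retained-intron transcript, since its coding transcripts alone summed to 4.04 ± 1.15 FPKM (SD, n = 5) in Control, below the gene sums of Kcnj10, Oxsr1 and Wnk4. In Control mice the members were ordered as Slc12a1 (115 ± 48.4 FPKM, SD, n = 5), Kcnj1 (62.5 ± 5.77), Slc12a3 (54.6 ± 7.03), Wnk1 (36.4 ± 5.49), Cul3 (25.4 ± 4.60), Kcnj10 (13.3 ± 1.16), Oxsr1 (12.5 ± 0.822), Wnk4 (9.54 ± 4.22), Stk39 (4.39 ± 1.11) and Klhl3 (3.49 ± 3.09). Among neighbours in that order, the ranges over mice were separate only between Slc12a3 and Wnk1, between Cul3 and Kcnj10, and between Wnk4 and Stk39. The order from Kcnj10 down to Klhl3 was the same in all 3 groups. At the top, Slc12a3 (92.3 ± 42.2 FPKM) and Slc12a1 (92.0 ± 62.4) overlapped in Ang II, and in QDG every Slc12a1 value was above every Slc12a3 value.

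The members differed widely in how steady they were within a group. The within-group SD on the log2(FPKM + 1) scale was 0.228 at the median of all genes tested. It was 1.43 for Klhl3, 0.840 for Slc12a1, 0.476 for Cul3, 0.462 for Slc12a3, 0.358 for Wnk4 and 0.278 for Stk39, all above that median. It was 0.217 for Wnk1, 0.183 for Kcnj10, 0.151 for Kcnj1 and 0.0815 for Oxsr1, all below it.

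**Figure D2:**
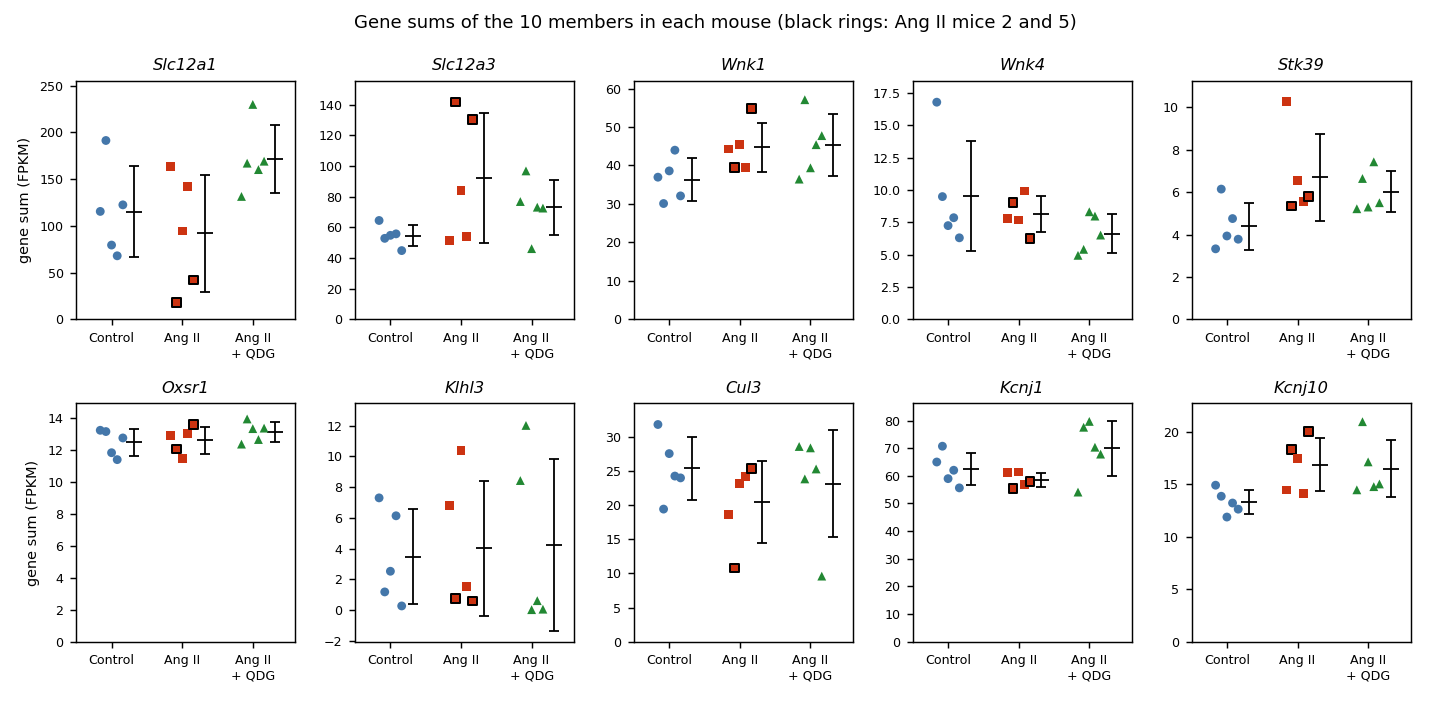
Gene sums in FPKM (vertical axes from 0, or from just below it for Klhl3, where an error bar passes 0) for the 10 members in the 15 mice. Each point is a mouse, the bar beside each group is the mean ± SD of 5 mice, and black rings mark Ang II mice 2 and 5, which hold the lowest Slc12a1 (18.0 and 42.1 FPKM) and the highest Slc12a3 (142 and 130 FPKM).

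Slc12a1, the NKCC2 gene, measured 116, 191, 79.5, 68.0 and 123 FPKM in Control mice 1 to 5. In the Ang II mice it measured 163, 18.0, 94.6, 142 and 42.1 FPKM, and in the QDG mice 132, 167, 230, 160 and 169 FPKM. Ang II mice 2 and 5 were the lowest of all 15, and the other 3 Ang II mice lay inside the Control range. The log2 fold change was −0.61 in Ang II vs. Control (SE 0.49, adjusted p = 0.504 from limma) and 1.25 in QDG vs. Ang II (SE 0.49, unadjusted p = 0.0236, adjusted p = 0.215), a fold change of 2.38. Without Ang II mice 2 and 5, these values became 0.26 (adjusted p = 0.685 from limma) and 0.38 (adjusted p = 0.657), so that the first turned its direction. In QDG vs. Control it was 0.64 (95% confidence interval −0.42 to 1.70, adjusted p = 0.584 from limma). Summed over the 8 thick ascending limb markers the level was 953 FPKM in Ang II mouse 2 and 1057 FPKM in mouse 5, against 1141 to 1464 in Control, up to 1392 in Ang II and 1247 to 1667 in QDG. Umod (695 and 785 FPKM), Cldn19 (4.32 and 4.66) and Tmem207 (1.95 and 3.20) were low in both mice, while Egf (153 and 156 FPKM) and Cldn16 (7.33 and 8.20) lay inside the range of the other 13. The sums were mostly Umod, and the values of Cldn10, Ptger3 and Casr are not given here. The part of the marker levels in the Slc12a1 values was not tested.

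The transcript ENSMUST00000110495, with the third alternative exon, carried 97.3% to 97.8% of the Slc12a1 sum in the Control mice. The share covers the listed transcripts only, so it does not rank the third exon against the second. It measured 113, 187, 77.4, 66.5 and 120 FPKM in Control, 159, 14.4, 89.5, 137 and 38.0 in Ang II and 123, 161, 224, 158 and 161 in QDG. The transcript with the first alternative exon, ENSMUST00000110494, stayed between 0.309 and 1.26 FPKM in 14 mice and reached 3.65 FPKM in QDG mouse 1. The retained-intron transcript ENSMUST00000147095, which ends just behind the alternative exons (chromosome 2, 125152580 to 125167145), measured 2.22, 3.94, 1.60, 0.996 and 2.33 FPKM in Control, 4.52, 2.36, 4.65, 4.66 and 3.45 in Ang II and 4.43, 5.05, 5.72, 1.61 and 7.50 in QDG. Of the 10 treated mice, 7 were above every Control mouse, with a log2 fold change of 0.65 in Ang II vs. Control (adjusted p = 0.315 from limma) and 0.83 in QDG vs. Control (adjusted p = 0.393), and it did not pass the test.

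The share of ENSMUST00000110495 in the Slc12a1 sum was lower in every Ang II mouse than in every Control mouse. It was 97.6% ± 0.179 (SD, n = 5) in Control and 97.0%, 79.9%, 94.7%, 96.3% and 90.2% in the Ang II mice, a difference of −6.03 percentage points. A two-sided exact permutation gave p = 0.00794, which is the lowest value possible with 5 against 5 mice, and adjusted p = 0.0476 over the 12 tests of ratios and shares. Leaving out any single Control or Ang II mouse raised the adjusted p to 0.0952, since smaller groups cannot reach as low a p in this exact test. With Ang II mice 2 and 5 left out the difference was −1.64 percentage points (adjusted p = 0.214 from the exact permutation test), and with coding transcripts alone it was −1.68 (adjusted p = 0.5). The share was 96.3% ± 1.87 in QDG, and its difference from Ang II did not pass the test (difference 4.65 percentage points, exact permutation p = 0.183, adjusted p = 0.313).

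Slc12a3, the NCC gene, measured 64.5, 52.9, 54.8, 55.8 and 44.9 FPKM in Control. It measured 51.2, 142, 84.0, 54.1 and 130 FPKM in Ang II and 76.9, 96.9, 46.2, 73.2 and 72.6 FPKM in QDG. Ang II mice 2 and 5 were the highest of all 15, while Ang II mice 1 and 4 were inside the Control range. The 4 listed distal convoluted tubule markers summed to 131 and 127 FPKM in Ang II mice 2 and 5, against 75.4 to 113 FPKM in Control, 65.4 FPKM at the lowest in Ang II and 57.0 to 102 FPKM in QDG, and none of the 4 was called. Their part in the Slc12a3 values was not tested. The log2 fold change was 0.63 in Ang II vs. Control (SE 0.27, unadjusted p = 0.0360, adjusted p = 0.185 from limma), −0.24 in QDG vs. Ang II (adjusted p = 0.713) and 0.39 in QDG vs. Control (adjusted p = 0.544). Without Ang II mice 2 and 5 the first was 0.18 (adjusted p = 0.708 from limma) and the second turned to 0.21 (adjusted p = 0.750). The coding transcripts alone, 2 of the 4 listed, summed to 2.43 to 5.11 FPKM in Control and 4.06 to 11.03 FPKM in Ang II, with the highest values again in Ang II mice 2 and 5 (10.60 and 11.03 FPKM). Their log2 fold change of 0.67 in Ang II vs. Control (adjusted p = 0.157 from limma) was close to that of the whole sum.

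The ratio of the Slc12a3 sum to the Slc12a1 sum was 0.276 to 0.820 in the Control mice and 0.201 to 0.584 in the QDG mice. In the Ang II mice it was 0.313, 7.89, 0.888, 0.381 and 3.09. The level of this ratio rests on the retained-intron transcript of Slc12a3, whose coding transcripts summed to only 2.43 to 5.11 FPKM in Control. On the log2 scale the difference between Ang II and Control was 1.27 (exact two-sided permutation test, p = 0.246, adjusted p = 0.369), and without Ang II mice 2 and 5 it was −0.09. With coding transcripts alone the difference was 1.5 (adjusted p = 0.34 from the exact permutation test). Over the 15 mice, Slc12a1 and Slc12a3 on the log2(FPKM + 1) scale gave Pearson's r = −0.68 (permutation p = 0.00712) and Spearman's rho = −0.47 (permutation p = 0.0784), and this was the only relation tested between members. Leaving out the 2 mice farthest from the median of Slc12a1, again Ang II mice 2 and 5, gave r = −0.05 (permutation p = 0.878), so the relation over all mice rested on those 2. Taken as deviations from the group means, which removes differences between groups, r was −0.81 over the 15 mice and −0.50 over the 13 without Ang II mice 2 and 5, given as a description with no test.

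**Figure D3:**
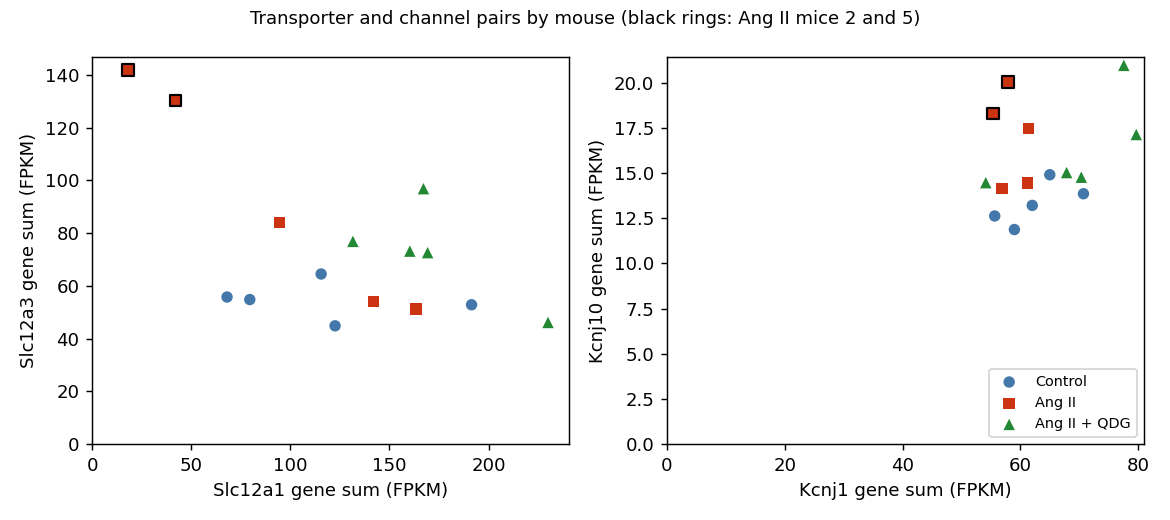
Slc12a3 against Slc12a1 (left) and Kcnj10 against Kcnj1 (right), gene sums in FPKM on axes from 0, with a point per mouse and black rings on Ang II mice 2 and 5. On the left these mice lie apart at 18.0 and 42.1 FPKM of Slc12a1, and over the other 13 mice r was −0.05 (−0.50 as deviations from the group means). On the right the Ang II mice lie on the upper side of the Control mice.

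Wnk1 as a gene was about as steady within groups as the median of all genes tested (SD 0.217 against 0.228). It measured 37.0, 30.1, 38.6, 44.0 and 32.1 FPKM in Control, 44.3, 39.5, 45.4, 39.5 and 54.8 in Ang II and 36.5, 57.1, 39.4, 45.4 and 47.8 in QDG. The groups overlapped, and the 2 lowest values were in Control. On the log2 scale Wnk1 differed by 0.29 in Ang II vs. Control (SE 0.13, unadjusted p = 0.0427, adjusted p = 0.202 from limma), 0.01 in QDG vs. Ang II (adjusted p = 0.979) and 0.30 in QDG vs. Control (unadjusted p = 0.0368, adjusted p = 0.313). The first was 0.25 without Ang II mice 2 and 5 (adjusted p = 0.399 from limma).

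Single Wnk1 transcripts varied far more than the gene. ENSMUST00000088646, with the 285-base exon, measured 20.7, 17.4, 0.470, 24.8 and 17.8 FPKM in Control, 3.08, 24.5, 26.2, 21.6 and 2.79 in Ang II and 18.0, 33.0, 2.71, 25.3 and 26.7 in QDG. ENSMUST00000203030, with the 84-base exon, measured 1.44, 1.66, 23.5, 2.45 and 0.231 FPKM in Control, 22.6, 1.47, 3.41, 2.72 and 31.3 in Ang II and 7.14, 3.39, 22.4, 2.67 and 4.04 in QDG. In 4 mice, Control mouse 3, Ang II mice 1 and 5 and QDG mouse 3, ENSMUST00000203030 was the higher, and in the other 11 it was ENSMUST00000088646. These mice came from all 3 groups, and the lower of the pair was at most 7.14 FPKM in every mouse. The within-group SD on the log2 scale was 1.51 and 1.49 for the transcripts and 0.214 for their sum, which ran from 18.0 to 36.4 FPKM. How the authors' quantification divided reads between transcripts that share most of their exons is not given in the sources used here, and its part in these values was not tested. Neither transcript passed the test in any comparison (adjusted p = 0.989 and 0.595 in Ang II vs. Control, from limma over 28812 transcripts).

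A like exchange was seen at the 3′ end of Wnk1. The retained-intron transcript ENSMUST00000159903 (chromosome 6, 119923969 to 119927261) measured 8.90 to 15.3 FPKM in 13 mice but 0.0335 FPKM in Control mouse 2 and 0.112 FPKM in Ang II mouse 2. In those same mice the long coding transcript ENSMUST00000088644, which ends at nearly the same base (119923971), measured 3.87 and 6.37 FPKM, against at most 0.0672 FPKM in the other 13. The remaining listed transcripts were low. ENSMUST00000162541 ran from 0.0103 to 4.89 FPKM, ENSMUST00000159397 from 0.175 to 1.95, ENSMUST00000160820 from 0.0178 to 1.84, ENSMUST00000203335 from 0.158 to 1.67 and ENSMUST00000204207 from 0.0832 to 0.826. Of these 5, the first 2 were tested and neither was called. The long coding transcript ENSMUST00000060043 was listed in the 10 treated mice and in no Control mouse, and it was left out of the sums. It measured 0.0123 to 0.311 FPKM in Ang II, 2.81 FPKM in QDG mouse 1 and 0.0165 to 0.0546 FPKM in the other QDG mice.

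The kidney is known for a short Wnk1 form without the kinase domain, made from a start inside the gene. No listed transcript was taken as that form, since the annotated transcripts that start further in, between 119990126 and 119992529, were not analysed here. The listed transcripts that start inside the gene, mainly ENSMUST00000159903, held 34.0% ± 7.57 (SD, n = 5) of the Wnk1 sum in Control, 30.7% ± 9.09 in Ang II and 33.4% ± 2.03 in QDG. The lowest shares, 14.9% and 21.4%, were in Ang II mouse 2 and Control mouse 2. The share was not shown to differ between Ang II and Control (difference −3.23 percentage points, exact permutation p = 0.532, adjusted p = 0.657).

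**Figure D4:**
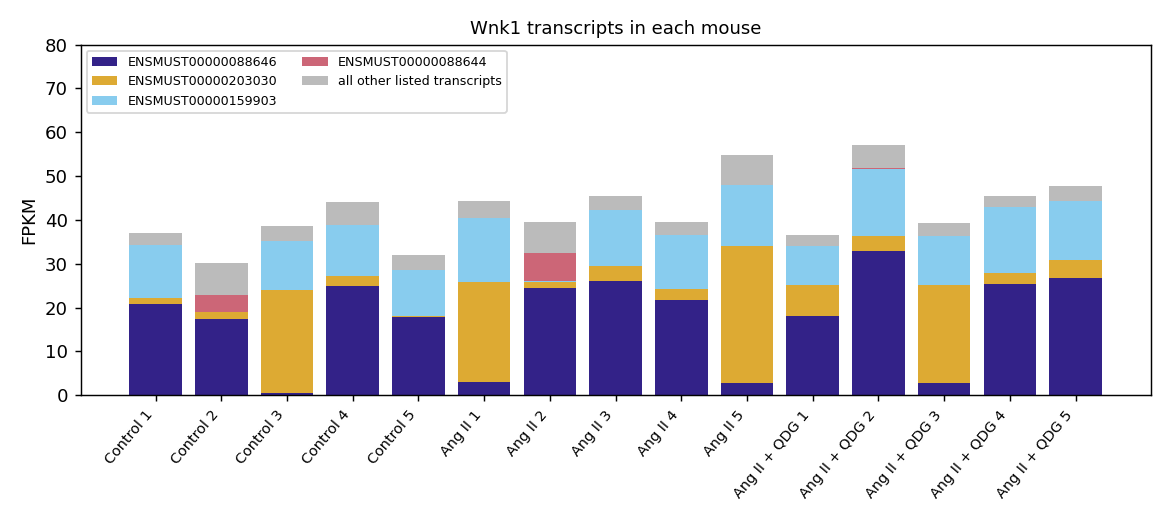
FPKM of Wnk1 transcripts stacked by mouse, with the bar height giving the gene sum (30.1 to 57.1 FPKM). ENSMUST00000203030 takes the place of ENSMUST00000088646 in 4 mice from all 3 groups, and ENSMUST00000159903 is missing from the bars of Control mouse 2 and Ang II mouse 2, where ENSMUST00000088644 appears.

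Wnk4, the WNK kinase best known for control of NCC, measured 16.8, 9.50, 7.25, 7.86 and 6.31 FPKM in Control. It measured 7.78, 9.03, 7.69, 9.94 and 6.24 FPKM in Ang II and 4.95, 5.42, 8.32, 7.99 and 6.52 FPKM in QDG. Control mouse 1 was the highest by far, and the other 14 mice lay between 4.95 and 9.94 FPKM. Wnk4 differed by −0.14 on the log2 scale in Ang II vs. Control (adjusted p = 0.742 from limma), and 0.06 without Control mouse 1. In QDG vs. Control it was −0.41 (95% confidence interval −0.87 to 0.05, adjusted p = 0.400 from limma).

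Stk39, the SPAK gene, measured 3.33, 6.15, 3.94, 4.76 and 3.78 FPKM in Control, 10.3, 5.35, 6.56, 5.54 and 5.80 in Ang II and 5.22, 6.65, 5.30, 7.43 and 5.51 in QDG. Only Control mouse 2 overlapped the treated mice. Control mouse 2 and Ang II mouse 1, the highest of their groups, also had the highest adipocyte marker sums of their groups (38.9 and 82.9 FPKM). QDG went the other way. There the highest adipocyte sum was in mouse 5 (31.2 FPKM), with Stk39 at 5.51 FPKM, while mouse 4, the highest in Stk39, had 7.30 FPKM. The part of the adipocyte markers in the Stk39 values was not tested. For Stk39 the log2 fold change in Ang II vs. Control was 0.50 (SE 0.17, 95% confidence interval 0.14 to 0.87, adjusted p = 0.0962 from limma). It stayed at 0.39 in QDG vs. Control (adjusted p = 0.312) and was −0.11 in QDG vs. Ang II (adjusted p = 0.807). The first value was 0.63 without Ang II mice 2 and 5 (adjusted p = 0.135 from limma). Without Control mouse 2 it was 0.61 and passed the test (adjusted p = 0.0452 from limma).

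The only coding transcript listed for Stk39, ENSMUST00000102715 (chromosome 2, minus strand, 68210445 to 68472268), separated the Ang II mice from the Control mice. It measured 1.04, 2.98, 1.91, 2.76 and 2.85 FPKM in Control and 5.43, 3.97, 5.44, 4.24 and 3.39 FPKM in Ang II. In QDG it measured 3.31, 5.00, 3.77, 4.04 and 3.93 FPKM. Every mouse of both treated groups was above every Control mouse, as were 4.32% of all transcripts tested in Ang II vs. Control and 1.73% in QDG vs. Control. These values rest on about 292 to 1523 fragments per mouse. Among transcripts the log2 fold change in Ang II vs. Control was 0.76 (SE 0.19, unadjusted p = 0.00126, adjusted p = 0.0719 from limma over 28812 transcripts). When gene sums were made from coding transcripts alone, Stk39 was the 1 member called in Ang II vs. Control (log2 fold change 0.76, adjusted p = 0.0339 from limma). In that fit 408 of all 10812 genes tested were called. The log2 fold change of Stk39 in QDG vs. Control was 0.63 there (adjusted p = 0.166 from limma). The retained-intron transcripts ENSMUST00000123781 (0.310 to 3.46 FPKM) and ENSMUST00000126663 (0.227 to 1.55 FPKM) made up the rest of the sum, and the largest value of the first was in Ang II mouse 1.

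Oxsr1, the gene of the SPAK relative OSR1, was the steadiest member. It measured 11.4 to 13.3 FPKM in Control, 11.50 to 13.6 in Ang II and 12.4 to 14.0 in QDG, all from the coding transcript ENSMUST00000040853. Its log2 fold change was 0.01 in Ang II vs. Control (95% confidence interval −0.12 to 0.15, adjusted p = 0.922 from limma), and its sign changed with the scaling. In QDG vs. Ang II it was 0.06 (95% confidence interval −0.08 to 0.19).

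Klhl3, the adaptor that binds WNK kinases, was the least steady. Its only listed transcript, ENSMUST00000160860, measured 7.31, 1.19, 2.53, 6.14 and 0.276 FPKM in Control, 6.79, 0.762, 10.4, 1.53 and 0.598 in Ang II and 8.44, 12.02, 0.0345, 0.620 and 0.0659 in QDG. High and low mice were found in every group. The log2 fold change in Ang II vs. Control was 0.02 with a 95% confidence interval of −1.78 to 1.82, so that a change of several fold in either direction could not be detected in these values.

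Cul3, the scaffold of the ubiquitin ligase, measured 31.8, 19.4, 27.5, 24.2 and 23.97 FPKM in Control, 18.6, 10.8, 23.1, 24.2 and 25.4 in Ang II and 28.6, 23.8, 28.4, 25.3 and 9.61 in QDG. Ang II mouse 2 and QDG mouse 5 were low, and the other mice overlapped. For Cul3 the log2 fold change was −0.34 in Ang II vs. Control (adjusted p = 0.519 from limma) and 0.14 in QDG vs. Ang II (adjusted p = 0.858), and without Ang II mice 2 and 5 these were −0.19 (adjusted p = 0.779) and −0.01 (adjusted p = 0.991). The coding transcript ENSMUST00000163119 gave most of the sum, with 8.66 and 8.54 FPKM in the low mice.

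Kcnj1, the ROMK gene, measured 65.0, 70.7, 59.0, 62.0 and 55.6 FPKM in Control. It measured 61.2, 55.3, 61.4, 56.9 and 57.9 FPKM in Ang II and 54.1, 77.6, 79.7, 70.3 and 67.8 FPKM in QDG. Of the QDG mice, 4 were above all Ang II mice and mouse 1 was below them. The log2 fold change in QDG vs. Ang II was 0.24 (SE 0.09, adjusted p = 0.211 from limma), and 0.33 without QDG mouse 1, which passed the test (adjusted p = 0.0417). In Ang II vs. Control it was −0.09 (95% confidence interval −0.29 to 0.11). The transcript ENSMUST00000172015, which starts further inside the gene, measured 8.78 to 13.1 FPKM in Control mouse 1, Ang II mouse 1 and QDG mice 1 and 2 and at most 0.330 FPKM in the other 11, while ENSMUST00000047334 measured 42.5 to 79.3 FPKM in all 15.

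Kcnj10, with a single listed transcript (ENSMUST00000056136), measured 14.9, 13.9, 11.9, 13.2 and 12.6 FPKM in Control. It measured 14.4, 18.3, 17.5, 14.1 and 20.03 FPKM in Ang II and 14.5, 20.9, 17.1, 14.8 and 15.02 FPKM in QDG. The groups overlapped at their edges, and Ang II mice 2 and 5 were the highest of their group. The log2 fold change was 0.31 in Ang II vs. Control (SE 0.11, unadjusted p = 0.0156, adjusted p = 0.119 from limma), 0.28 in QDG vs. Control (unadjusted p = 0.0279, adjusted p = 0.287) and −0.03 in QDG vs. Ang II (adjusted p = 0.924). The first was 0.19 without Ang II mice 2 and 5 (unadjusted p = 0.144, adjusted p = 0.436 from limma) and the last turned to 0.09 (adjusted p = 0.826).

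The ratio of Kcnj10 to Kcnj1, the channel of the basolateral membrane over that of the apical membrane, was higher in Ang II than in Control in the main test with all mice. On the log2 scale it was −2.23 ± 0.101 (SD, n = 5) in Control, −1.81 ± 0.243 in Ang II and −2.09 ± 0.177 in QDG. Every Ang II mouse was above every Control mouse, with −2.08 as the lowest Ang II value and −2.12 as the highest Control value. The difference was 0.43 (exact two-sided permutation test, p = 0.00794, adjusted p = 0.0476 over 12 tests). The ratio is taken within a mouse, so a common scaling factor for the mouse has no effect on it. Leaving out any single Control or Ang II mouse gave differences of 0.356 to 0.494, and the adjusted p of the exact test was then 0.0952. All listed transcripts of both genes are coding, so with coding transcripts alone the difference stayed at 0.43. The adjusted p over the 12 exact tests was then also 0.0952, because other tests among the 12 changed. Without Ang II mice 2 and 5, where the ratio was −1.60 and −1.53, the difference was 0.26 (adjusted p = 0.214 from the exact permutation test). These mice also had the lowest thick ascending limb marker sums (953 and 1057 FPKM) and the highest distal convoluted tubule marker sums (131 and 127 FPKM). The part of the markers in Kcnj10 and in the ratio was not tested. Between QDG and Ang II the difference was −0.28 (exact permutation p = 0.0794, adjusted p = 0.313).

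Other genes of the pathway were read from lists of named partners. Of 16 genes that act on the WNK kinases, SPAK, OSR1 or the transporters, 14 were tested, all but Wnk2 and Wnk3. For Ang II vs. Control, 1 was upregulated and none downregulated, in QDG vs. Ang II, 1 was downregulated and none upregulated, and in QDG vs. Control none was called by limma, beside 5.94%, 1.81% and 0.129% of all genes. At an unadjusted p under 0.05 from limma there were 4, 5 and 2 of the 14, beside 22.7%, 16.4% and 14.4% of all genes. The median log2 fold change of the 14 was 0.09, −0.08 and 0.04 in the same order, beside 0.08, −0.02 and 0.06 over all genes. The called gene was Klhl2 in each case, a relative of Klhl3 that also presents WNK kinases to CUL3. It measured 12.997, 15.3, 13.5, 14.7 and 12.03 FPKM in Control, 17.3, 15.7, 17.5, 16.2 and 15.5 in Ang II and 13.1, 12.3, 13.4, 13.2 and 12.2 in QDG. Every Ang II mouse was above every mouse of the other groups, a separation found upward in 6.49% of all genes tested in Ang II vs. Control and downward in 3.44% in QDG vs. Ang II. Klhl2 differed by 0.25 on the log2 scale in the first of these comparisons (SE 0.07, adjusted p = 0.0429 from limma) and by −0.33 in the second (SE 0.07, adjusted p = 0.0260). Both calls use the same Ang II mice. The first was lost under median scaling (0.15, adjusted p = 0.213 from limma) and under quantile normalization (0.16, adjusted p = 0.186), and at 0.25 with only the groups compared (adjusted p = 0.0958), without a trend (0.0517) or with coding transcripts alone (0.0530). Without Ang II mice 2 and 5 the values were 0.30 (adjusted p = 0.0947) and −0.38 (adjusted p = 0.0897). With a single mouse left out, the first call was lost in 13 of 15 fits, all but those without Control mouse 2 or 4, and the second in 8 of 15.

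Among the other partners of this kind, Sgk1, the aldosterone-induced kinase, measured 55.2 ± 23.8 FPKM (SD, n = 5) in Control, 50.1 ± 14.4 in Ang II and 75.6 ± 32.1 in QDG. Nedd4l, a ubiquitin ligase that acts on NCC and the epithelial sodium channel, measured 16.7 ± 3.55, 18.6 ± 5.29 and 16.2 ± 2.19 FPKM. Cab39, which binds SPAK and OSR1 and raises their activity, measured 22.8 ± 14.3, 19.2 ± 12.7 and 25.3 ± 11.8 FPKM, with single mice from 7.04 to 34.7 FPKM. None of these passed the test in any comparison.

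Of 14 salt transport partners, chloride and potassium channels, cotransporters and pumps that work beside NKCC2 and NCC, 13 were tested, all but Kcnma1. For Ang II vs. Control, 3 were upregulated and none downregulated, beside 5.94% of all genes called, and their median log2 fold change was 0.39, beside 0.08 over all genes. Genes of other cell types moved in the same comparison, among them Podxl, a podocyte gene (log2 fold change 0.35, adjusted p = 0.0278 from limma), and Slc26a4, an intercalated cell gene (0.49, adjusted p = 0.0312), and their part in the partner values was not tested. For QDG vs. Ang II, 1 was downregulated and none upregulated, beside 1.81%, with a median of −0.07, beside −0.02. For QDG vs. Control none was called by limma, beside 0.129%, with a median of 0.21, beside 0.06. At an unadjusted p under 0.05 from limma there were 7, 3 and 6 of the 13, beside 22.7%, 16.4% and 14.4% of all genes.

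Among the upregulated partners, Atp1b1, which encodes the beta subunit of the sodium pump, rose from 960 ± 68.3 FPKM (SD, n = 5) in Control to 1136 ± 57.2 in Ang II (log2 fold change 0.24, adjusted p = 0.0226 from limma). It measured 941, 1081, 939, 925 and 916 FPKM in Control and 1149, 1059, 1211, 1156 and 1105 FPKM in Ang II. Control mouse 2 was above Ang II mouse 2, and the other Ang II mice were above all Control mice. The call was lost under median scaling (0.14, adjusted p = 0.178 from limma), with only the groups compared (0.24, adjusted p = 0.0509), without Ang II mice 2 and 5 (0.29, adjusted p = 0.0578) and with Control mouse 1 or 3 left out, with the direction kept.

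Kcnj15, a potassium channel gene of the same family as Kcnj10, was downregulated in QDG vs. Ang II. It measured 64.2, 52.6, 76.5, 118 and 143 FPKM in Ang II and 15.3, 12.9, 12.3, 13.1 and 17.2 in QDG, a log2 fold change of −2.51 (SE 0.47, adjusted p = 0.0222 from limma). These groups did not overlap, a separation found downward in 3.44% of all genes tested in this comparison. In Control it measured 131, 13.6, 84.0, 40.9 and 76.6 FPKM, with mouse 2 at the level of the QDG mice, and the log2 fold change in QDG vs. Control was −1.88 (adjusted p = 0.110 from limma). Without Ang II mice 2 and 5 the first value was −2.49 (adjusted p = 0.0949), and with a single mouse left out the call was lost in 4 of 15 fits. Its values were the sum of 12 listed transcripts.

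Kcnj16, whose product forms a channel together with that of Kcnj10, measured 19.7 ± 3.40 FPKM (SD, n = 5) in Control, 19.5 ± 2.29 in Ang II and 19.7 ± 8.94 in QDG, where mouse 4 stood at 5.19 FPKM. Bsnd, the gene of barttin, a subunit of renal chloride channels, measured 20.1 ± 3.05, 24.2 ± 3.40 and 25.1 ± 3.57 FPKM. Neither was called.

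**Figure D5:**
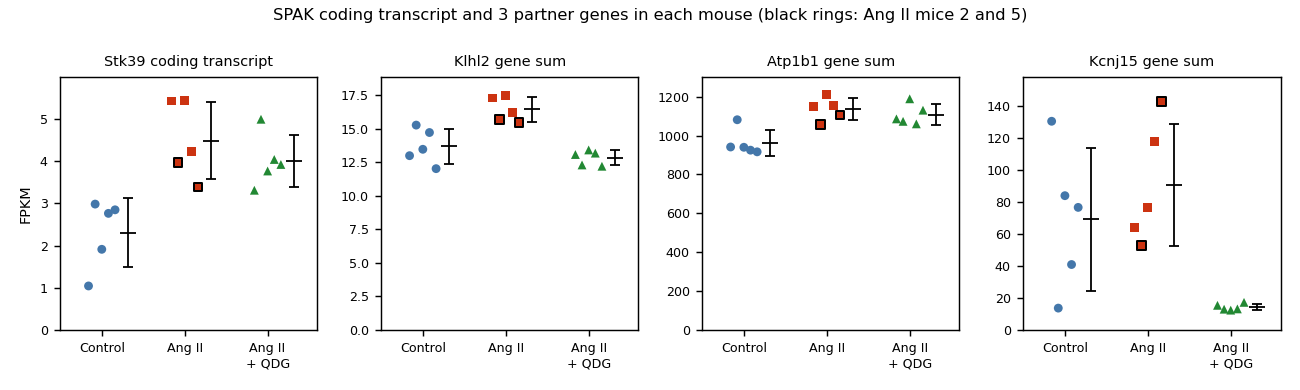
FPKM of the Stk39 coding transcript and of 3 partner genes by mouse, with the mean ± SD of 5 mice beside each group, axes from 0 and black rings on Ang II mice 2 and 5. The Stk39 transcript is above all Control mice in both treated groups (from 3.39 FPKM in Ang II and 3.31 FPKM in QDG, against at most 2.98), Klhl2 is highest in Ang II, and Kcnj15 stays at 12.3 to 17.2 FPKM in QDG.

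The genes most like the transporters were sought among 4899 genes with a mean of at least 10 FPKM, by Pearson's r over the 15 mice on the log2(FPKM + 1) scale. For Slc12a1 they were Serpina1f (r = 0.938), Nccrp1 (0.936) and Wfdc15b (0.925). In Ang II mice 2 and 5 these measured 13.9 and 26.8, 4.44 and 6.21, and 85.1 and 109 FPKM, against Control means of 43.4, 19.3 and 148 FPKM. For Slc12a3 they were Pgam2 (r = 0.891), Klk1 (0.887), the tissue kallikrein gene, and Emx1 (0.846). In Ang II mice 2 and 5 these measured 70.0 and 70.1, 3141 and 2841, and 32.3 and 30.8 FPKM, against Control means of 44.4, 1653 and 20.6 FPKM. The points share the same 15 libraries, and the values are a description. Over the 13 mice without Ang II mice 2 and 5, r was 0.749, 0.876 and 0.857 for the genes named with Slc12a1 and 0.779, 0.800 and 0.582 for those named with Slc12a3, in the same order.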

How the data were processed

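The 10 members and the partner and marker lists were chosen with earlier results of these data known. Total kidney RNA was depleted of rRNA. The methods of the study add an isolation of poly(A) RNA, which the labels do not mention, so how far unspliced RNA was kept is not known. The files deposited by the authors give each transcript a value without a stated unit. These deposited values were taken as FPKM made by the authors from mapped fragments, because multiplying by transcript length gave whole reads, within 0.1 reads, for 98.7% to 98.9% of the values under 200 reads in each mouse. The submitters' notes name limma and mm10, and the aligner, the quantifier and the use of strand are not given in the sources used here. Overlapping genes therefore cannot be told apart. Of 31301 Ensembl identifiers, 31254 matched GENCODE mouse release 21 (GRCm38), and sequences came from its transcripts. Assembled transcripts without names held 9.57% to 11.9% of FPKM, so members' reads in them are missing from the sums. The Control files list 41477 transcripts and the other files 42310, and those missing from some files were left out. Of the 40054 transcripts listed in all 15 mice, 29 belonged to members and 20 of these were tested.

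Gene sums that reached 1 FPKM in 5 or more mice were tested on log2(FPKM + 1) with limma 3.58.1 (trend, 1 model of 15 mice, 12 residual degrees of freedom, Benjamini-Hochberg adjustment) in R 4.3.3. limma was tested on simulated data. The 4 ratios and shares were tested in 3 comparisons by exact two-sided permutation (scipy 1.17.1). All members, all Wnk1 and Slc12a1 transcripts with values, called partners and partners set by name are given, and some called partners and markers are not reported here. Fit alternatives were other pseudocounts (0.1, 0.01), filters, scalings, transcript sets, groups, no trend, and leaving out mice.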

Additional observations from a re-analysis of the deposited data

Results flagged for a closer look

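In 66 groups of 5 mice, made of the 10 gene sums and the listed transcripts of Wnk1 and Slc12a1, 10 values lay far from the other 4 by Dixon's gap on the log2 scale, where chance gives about 1 in 20 groups. Cul3 was 9.61 FPKM in QDG mouse 5, against 23.8 to 28.6 in the other 4. For Wnk1, ENSMUST00000088644 was 3.87 FPKM in Control mouse 2, 6.37 in Ang II mouse 2 and 0.0672 in QDG mouse 2, against at most 0.0459 in the other mice of these groups. ENSMUST00000159903 was 0.0335 FPKM in Control mouse 2 and 0.112 in Ang II mouse 2, against 10.7 to 14.6 in the others. ENSMUST00000088646 was 0.470 FPKM in Control mouse 3 and 2.71 in QDG mouse 3, against 17.4 to 33.0. ENSMUST00000160820 was 1.84 FPKM in Ang II mouse 5, against 0.337 to 0.506. For Slc12a1, ENSMUST00000110494 was 3.65 FPKM in QDG mouse 1, against 0.530 to 0.880. Of these values, 9 belonged to single transcripts and 1 to a gene sum.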

How the results depend on the processing

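No paired analysis was possible because the labels give no replicate numbers that the groups share. The 10 alternatives that kept every mouse and those that left out mice left the members uncalled, except for Stk39 with coding transcripts alone (1 member called in Ang II vs. Control) and, with a mouse left out, Stk39 (without Control mouse 2) and Kcnj1 (without QDG mouse 1), so that members called ran from 0 to 1 in Ang II vs. Control and in QDG vs. Ang II. Leaving out Ang II mice 2 and 5 together was chosen after seeing the data. The cause of the changes given here was not tested, apart from the smaller number of mice, transcripts or genes that an alternative itself imposes.

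Over all genes, Ang II vs. Control gave 735 calls, 456 with only these groups, 408 with coding transcripts, 83 without Ang II mice 2 and 5 and 338 to 797 with a mouse left out (338 without Control mouse 1, 361 without Control mouse 3, 398 without Ang II mouse 2 and 348 without Ang II mouse 5). QDG vs. Ang II gave 224, 58 with only these groups, 10 without Ang II mice 2 and 5 and 53 to 249 with a mouse left out (53 without Ang II mouse 2 or QDG mouse 4, 65 without Ang II mouse 5 and 57, 81 and 80 without QDG mice 2, 3 and 5). QDG vs. Control gave 16, 4 with only these groups, 80 with all listed transcripts, 6 with coding transcripts and 0 to 110 with a mouse left out, 0 without Control mouse 4 (1498 at an unadjusted p under 0.05 from limma) and 110 without Control mouse 2. Transcripts called in Ang II vs. Control were 199, 322 at a minimum of 5 FPKM, 108 without a trend, 10 without Ang II mice 2 and 5 and 29 to 359 with a mouse left out. In QDG vs. Ang II they were 28, then 137 at 5 FPKM, 11 under median scaling, 11 without a trend, 7 without Ang II mice 2 and 5 and 11 to 43 with a mouse left out. In QDG vs. Control they were 7, then 15 at 5 FPKM, 12 with only these groups, 3 without a trend and 1 to 23 with a mouse left out.

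Signs of member log2 fold changes turned as follows. Without Ang II mice 2 and 5, Slc12a1 was 0.264 and Oxsr1 −1.11e-05 in Ang II vs. Control, and in QDG vs. Ang II Slc12a3 was 0.208, Cul3 −0.0109 and Kcnj10 0.0888. Under quantile normalization Oxsr1 was −0.0735 and Klhl3 −0.0727 in Ang II vs. Control and Kcnj10 0.00262 in QDG vs. Ang II. Under median scaling Oxsr1 was −0.0824 and Klhl3 −0.0477 in Ang II vs. Control, and Oxsr1 −0.0137 in QDG vs. Control. With coding transcripts Wnk1 was −0.00876 in QDG vs. Ang II. With a mouse left out the ranges that crossed 0 were, in Ang II vs. Control, −0.257 to 0.0636 for Wnk4, −0.015 to 0.0453 for Oxsr1 and −0.39 to 0.326 for Klhl3. In QDG vs. Ang II they were −0.0764 to 0.0848 for Wnk1, −0.178 to 0.0361 for Stk39, −0.843 to 0.107 for Klhl3, −0.0626 to 0.413 for Cul3 and −0.12 to 0.0278 for Kcnj10. In QDG vs. Control they were −0.82 to 0.0934 for Klhl3 and −0.296 to 0.0738 for Cul3. None of these changes passed the test in the fit with all mice.

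For the log2 Kcnj10 to Kcnj1 ratio in Ang II vs. Control, the difference was 0.264 without Ang II mice 2 and 5 and 0.356 to 0.494 with a mouse left out. Coding transcripts are all the listed transcripts of these genes, so with them it was the same as in the main test, 0.425. Its adjusted p was then 0.0952 from the exact permutation test, because other tests adjusted with it changed. The adjusted p was 0.0952 without any single Control or Ang II mouse, where the smaller groups raise the smallest possible p, and 0.0476 without any single QDG mouse. The share of the leading Slc12a1 transcript differed by −1.68 percentage points with coding transcripts, by −1.64 without Ang II mice 2 and 5 and by −7.39 to −3.09 with a mouse left out, −3.09 being without Ang II mouse 2. The log2 Slc12a3 to Slc12a1 ratio was −0.0853 in Ang II vs. Control without Ang II mice 2 and 5. In QDG vs. Control it was 0.00738 with coding transcripts and −0.468 to 0.0152 with a mouse left out. The share of Wnk1 transcripts that start inside the gene differed by 0.711 percentage points in Ang II vs. Control and by −1.32 in QDG vs. Ang II without Ang II mice 2 and 5. With a mouse left out the differences were −6.38 to 0.721 in Ang II vs. Control, −1.33 to 4.32 in QDG vs. Ang II and −3.76 to 1.09 in QDG vs. Control. The 6 calls of partner genes kept their direction under all alternatives run for them, and were lost in 17 of 66 fits with another setting or without Ang II mice 2 and 5, and in 36 of 90 with a mouse left out.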
